A study of Homo sapiens with 6 samples.

Results

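The enzymes described here are the carbohydrate sulfotransferases CHST8 to CHST15 and the uronyl 2-sulfotransferase UST, a group of 9 genes that covers the 4-O sulfation of N-acetylgalactosamine (GalNAc), the sulfation of the HNK-1 epitope and the further sulfation of chondroitin and dermatan chains. They were chosen by name, by matching the RefSeq accession in each probe set's identifier to its gene symbol. All 9 genes were found with 1 probe set each, out of 927 named genes and 1259 probe sets in the table. Expression was measured on Affymetrix arrays in 2 populations of the established human colon carcinoma line RKO, to ask which enzyme of glycosylation is deficient where the urokinase receptor u-PAR matures incompletely. RKO C2 is a clonal population. Sorting it by fluorescence for cells with low u-PAR gave RKO C2 F3. Either population had 3 arrays, which carry the numbers 1 to 3, with no other treatment or genetic change named in the labels. F3 is described both as clonal and simply as a population, so whether it is 1 clone is not settled. Each array number comes with its own date-like tag in the titles, shared by the C2 and F3 arrays of that number, and what the tag stands for is not stated. No label says that the 3 arrays of a population are separate cultures, so the spread behind the p-values may be technical.

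All 9 enzymes transfer sulfate from the donor PAPS (3'-phosphoadenosine 5'-phosphosulfate) to a sugar in the Golgi. CHST8 and CHST9 act on terminal GalNAc, as on the N-glycans of pituitary hormones such as lutropin, and CHST10 sulfates a terminal glucuronic acid to complete the HNK-1 epitope, known from neural cell adhesion molecules. CHST11, CHST12 and CHST13 sulfate GalNAc in chondroitin, CHST14 does so in dermatan, CHST15 adds a second sulfate to GalNAc that is already sulfated, and UST sulfates the uronic acids of the same chains. Chondroitin and dermatan sulfates are linear chains carried by proteoglycans at the cell surface and in the matrix.

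The arrays were alike over the whole table. Their median log2 expression lay between 5.48 and 5.51, and r between 2 arrays, taken across probe sets, was at least 0.9981. In the comparison of F3 with C2, 1 of 1259 probe sets had a limma adjusted p under 0.05, or 0.0794%, and 2 with the replicate number as a block, or 0.159%. The single call was absent without C2 replicate 2, C2 replicate 3 or F3 replicate 1, each of which gave 0 calls, and the count was 2 without F3 replicate 2. Of 14 colon epithelium markers listed, 3 were measured, MUC2, LGALS4 and MUC13, with a mean log2 level between 4.599 and 4.78 over all arrays. The mean of 11 leukocyte markers ran from 4.19 to 4.23 in C2 and from 4.19 to 4.21 in F3. That of 7 fibroblast and endothelial markers ran from 3.54 to 3.59 in C2 and from 3.47 to 3.53 in F3, without overlap. In limma 0 markers of either list passed the threshold. The log2 changes, F3 minus C2, of the fibroblast and endothelial markers were 6 negative and 1 positive, from -0.20 for ICAM2 to 0.016 for SELE. Those of the leukocyte markers were 5 negative and 6 positive, and 54.6% of all probe sets had a negative change. At an unadjusted limma p under 0.05 the leukocyte list had 2 of 11 markers, CD72 with a change of 0.23 and KLRC1 with -0.21. The fibroblast and endothelial list had 1 of 7, ICAM2, and 5.4% of all probe sets had such a p. Arrays did not overlap between the populations for 4 of the 11 leukocyte markers, 1 of them lower in F3. Of all probe sets 10.3% did not overlap. The mean of 6 neural markers ran from 5.56 to 5.59 in C2 and from 5.48 to 5.60 in F3. Over the 6 arrays BCAN, at 8.52, and B3GAT1, at 8.04, stood above the other neural markers, between 2.85 and 5.94. Of the 6 neural markers 0 were called and 1, BCAN, had an unadjusted limma p under 0.05. Their log2 changes, F3 minus C2, were 3 negative and 3 positive, from -0.30 for BCAN to 0.12 for NCAN. The other BCAN probe set, at a mean of 4.82, had a change of 0.088. The part that other cells could have in the results was not tested.

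None of the 9 sulfotransferases passed the test between F3 and C2, in either direction. Limma called 0 of 9 at an adjusted p under 0.05, where 0.0794% of all probe sets were called, and 0 of 9 had an unadjusted p under 0.05, against 5.4% of all probe sets. The replicate block also called 0 of 9, with 1 of 9 at an unadjusted p under 0.05 against 8.02% of all probe sets. Their log2 changes, F3 minus C2, ran from -0.19 for CHST15 to 0.066 for CHST13, with 6 negative and 3 positive and a median of -0.055. Over all probe sets the median change was -0.0064 and 54.6% of the changes were negative. The median size of a change, regardless of sign, was 0.059 for the 9 genes and 0.047 for all probe sets. As these are bulk samples, fewer cells making a transcript and less transcript per cell cannot be told apart.

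The intervals come from the fit without the replicate block and show which changes these arrays allow in that fit. The median half-width of the 95% interval was 0.16 on the log2 scale for the 9 genes and 0.15 for all probe sets. The lowest bound belonged to CHST15, at -0.46, which allows a level up to 1.38-fold lower in F3. The highest bound belonged to CHST14, at 0.25, which allows a level up to 1.19-fold higher. With the replicate block the SE of CHST15 was 0.069 rather than 0.12, and its unadjusted limma p was 0.032. Intervals of the blocked fit are not given here. RMA, the authors' summary of the probes, shrinks changes of dim probe sets, so the bounds for CHST11 and CHST9 are on a compressed scale.

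**Figure D1:**
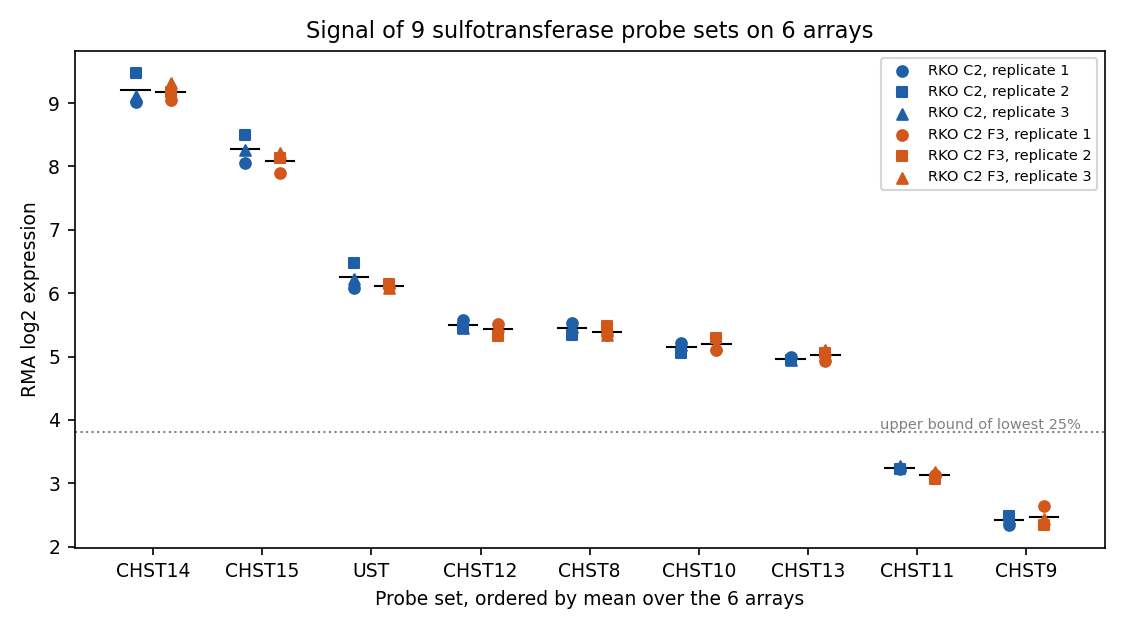
Log2 expression (vertical axis) of the 9 probe sets on the 3 RKO C2 arrays (blue) and the 3 RKO C2 F3 arrays (orange), with symbols for the replicate number and black lines for the mean of each population. Probe sets are ordered by their mean over the 6 arrays, from CHST14 at 9.19 to CHST9 at 2.45, and the dotted line at 3.80 bounds the lowest 25% of all 1259 probe sets.

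The isoenzymes had very different signals. By the mean over the 6 arrays the order of log2 expression was CHST14 at 9.19, CHST15 at 8.18, UST at 6.19, CHST12 at 5.46, CHST8 at 5.42, CHST10 at 5.17, CHST13 at 4.995, CHST11 at 3.18 and CHST9 at 2.45. The ranges of neighbours over the 6 arrays did not overlap except for 2 pairs, CHST12 with CHST8 and CHST10 with CHST13. Within each array, however, CHST10 was above CHST13 on all 6. CHST11 and CHST9 lay in the lowest 25% of the table, below 3.80. Probes of different genes bind with different strength, and no detection call was used, so this is an order of array signal and not of transcript amount.

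The regions before the gene starts were compared as a feature that the choice of genes did not use. The RefSeq promoter table (GRCh38.p14) held all 9 genes, with 2 starts for CHST8, and the 250 bases before each start were read. The 10 regions had a median GC content of 69.8% and a median of 24 CpG, against 58% and 11 over the 35116 regions of the table, which include noncoding genes. The GC box GGGCGG, searched on both strands, was found in 9 of 10 regions and in 42.6% of all regions. The TATA box TATAAA was found in 0 of 10 and in 10.7% of all regions, and CCAAT in 1 of 10, that of CHST13, and in 32% of all. The regions of CHST14 and CHST9, with the highest and the lowest signal, and of CHST10, which lacks the GC box, are shown 5' to 3' with GC boxes in capitals, on either strand and with overlapping matches joined.
CHST14, chr15:40470734-40470983, plus strand: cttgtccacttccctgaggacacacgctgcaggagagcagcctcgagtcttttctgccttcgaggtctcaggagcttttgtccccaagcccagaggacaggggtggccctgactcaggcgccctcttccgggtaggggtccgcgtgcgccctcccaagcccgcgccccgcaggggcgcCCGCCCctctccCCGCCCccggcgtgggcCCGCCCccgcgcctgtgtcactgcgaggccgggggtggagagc
CHST9, chr18:27185309-27185558, minus strand: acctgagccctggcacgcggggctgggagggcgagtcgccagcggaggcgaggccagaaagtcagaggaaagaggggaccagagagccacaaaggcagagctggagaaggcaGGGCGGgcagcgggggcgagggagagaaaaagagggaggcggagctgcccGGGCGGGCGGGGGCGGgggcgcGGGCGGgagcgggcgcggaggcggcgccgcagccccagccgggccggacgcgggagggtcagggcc
CHST10, chr2:100417669-100417918, minus strand: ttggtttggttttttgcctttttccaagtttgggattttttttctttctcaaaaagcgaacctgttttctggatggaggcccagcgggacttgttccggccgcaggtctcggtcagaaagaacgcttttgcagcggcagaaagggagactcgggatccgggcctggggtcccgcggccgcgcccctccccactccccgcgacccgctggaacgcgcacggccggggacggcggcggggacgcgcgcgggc
The CHST14 region held 3 GC box matches and the CHST9 region 5, so the motif was present at both ends of the signal order. A match is only a description of these letters, and nothing measured here bears on binding at these regions.

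CHST8 and CHST9, the GalNAc 4-O sulfotransferases of N-glycans, had changes of opposite sign, and neither passed. CHST8 had log2 levels of 5.52, 5.34 and 5.47 on C2 arrays 1 to 3 and of 5.34, 5.49 and 5.34 on F3 arrays 1 to 3. The populations overlapped, and the change was -0.055 (SE 0.068, 95% interval -0.21 to 0.10, limma adjusted p = 0.998). It ran from -0.11 without C2 replicate 2 to -0.016 without C2 replicate 1. Its probe set has the ending s_at, which in Affymetrix naming marks probes that can match more than one transcript. CHST9 had log2 levels of 2.34, 2.48 and 2.45 in C2 and of 2.64, 2.34 and 2.44 in F3. F3 replicate 1 was the highest and F3 replicate 2 the lowest of all 6 arrays, so F3 enclosed the whole range of C2. The change was 0.050 (SE 0.083, interval -0.14 to 0.24, limma adjusted p = 0.998), and without F3 replicate 1 it was -0.035.

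CHST10, the HNK-1 sulfotransferase, had log2 levels of 5.21, 5.06 and 5.19 in C2 and of 5.11, 5.29 and 5.18 in F3. C2 replicate 2 was the lowest array and F3 replicate 2 the highest, and the other 4 arrays lay between 5.11 and 5.21. The change was 0.041 (SE 0.068, interval -0.12 to 0.20, limma adjusted p = 0.998). It turned to -0.0066 without C2 replicate 2 and to -0.0083 without F3 replicate 2.

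Among the chondroitin 4-O sulfotransferases, CHST11 was the only one of all 9 genes whose arrays did not overlap between the populations. CHST11 had log2 levels of 3.22, 3.23 and 3.28 in C2 and of 3.13, 3.07 and 3.17 in F3. Every F3 array was thus below every C2 array, a pattern that 6.51% of all probe sets showed in this direction, 3.81% in the other and 10.3% in either. The mean was 3.24 ± 0.029 in C2 and 3.13 ± 0.049 in F3 (SD, n = 3 each). The change was -0.12 (SE 0.052, interval -0.24 to 0.0033, limma adjusted p = 0.97), or 1.08-fold lower, and did not pass. Same-numbered arrays differed by -0.092, -0.15 and -0.10. The change stayed between -0.14 and -0.090 with single arrays left out. By its unadjusted limma p of 0.055 without the replicate block, CHST11 ranked 72 among the 1259 probe sets and first among the 9 genes. With the block its unadjusted limma p was 0.0502, and CHST15 had the smallest of the 9, at 0.032. The CHST11 signal is in the lowest 25% of the table, and its probe set also has the ending s_at.

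CHST12 and CHST13 had changes of opposite sign. CHST12 had log2 levels of 5.58, 5.45 and 5.45 in C2 and of 5.51, 5.32 and 5.48 in F3, with C2 replicate 1 highest and F3 replicate 2 lowest. The populations overlapped, and the change was -0.059 (SE 0.069, interval -0.22 to 0.098, limma adjusted p = 0.998), and it was -0.0032 without F3 replicate 2. CHST13 had the tightest C2 values of the group, 4.99, 4.95 and 4.95, beside 4.93, 5.05 and 5.10 in F3. F3 replicates 2 and 3 lay above all C2 arrays and F3 replicate 1 below them. The change was 0.066 (SE 0.059, interval -0.069 to 0.20, limma adjusted p = 0.97), the highest of the 9 genes, and it ran from 0.030 without F3 replicate 3 to 0.11 without F3 replicate 1. The difference between these isoenzymes was not tested.

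CHST14, the dermatan 4-O sulfotransferase, whose loss causes a form of Ehlers-Danlos syndrome, had the highest signal. Its log2 levels were 9.02, 9.47 and 9.11 in C2 and 9.05, 9.17 and 9.32 in F3. C2 held both the highest array, replicate 2, and the lowest, replicate 1, so the F3 arrays lay within its range. The change was -0.023 (SE 0.12, interval -0.295 to 0.25, limma adjusted p = 0.998). The sign was not stable, since the change was 0.11 without C2 replicate 2, 0.043 without F3 replicate 1 and 0.030 after quantile normalization.

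CHST15, which makes the doubly sulfated GalNAc of chondroitin sulfate E, had the largest difference of the 9 genes. Its log2 levels were 8.06, 8.49 and 8.26 in C2 and 7.90, 8.13 and 8.21 in F3. F3 was lower in each pair of same-numbered arrays, by -0.16, -0.36 and -0.051, but the populations overlapped, since C2 replicate 1 lay below F3 replicates 2 and 3. The mean was 8.27 ± 0.22 in C2 and 8.08 ± 0.16 in F3 (SD, n = 3 each). The change was -0.19 (SE 0.12, interval -0.46 to 0.081, limma adjusted p = 0.97), or 1.14-fold lower, with rank 43 of 1259 by size. With the replicate block the SE was 0.069, the unadjusted p 0.032 and the limma adjusted p 0.54. Without C2 replicate 2 the change was -0.080 and without C2 replicate 1 it was -0.30. CHST15 and CHST11 were the 2 genes of the 9 that were lower in all 3 pairs, where 17.8% of all probe sets were.

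UST, which sulfates uronic acids in chondroitin and dermatan, had log2 levels of 6.08, 6.48 and 6.22 in C2 and of 6.10, 6.15 and 6.09 in F3. The F3 arrays lay within 0.061 of each other, whereas C2 spanned 0.40, with C2 replicate 1 below all F3 arrays. The change was -0.15 (SE 0.095, interval -0.36 to 0.069, limma adjusted p = 0.97), and it was -0.038 without C2 replicate 2. The difference was positive in the pair of number 1, at 0.024, and negative in the others, at -0.33 and -0.14.

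**Figure D2:**
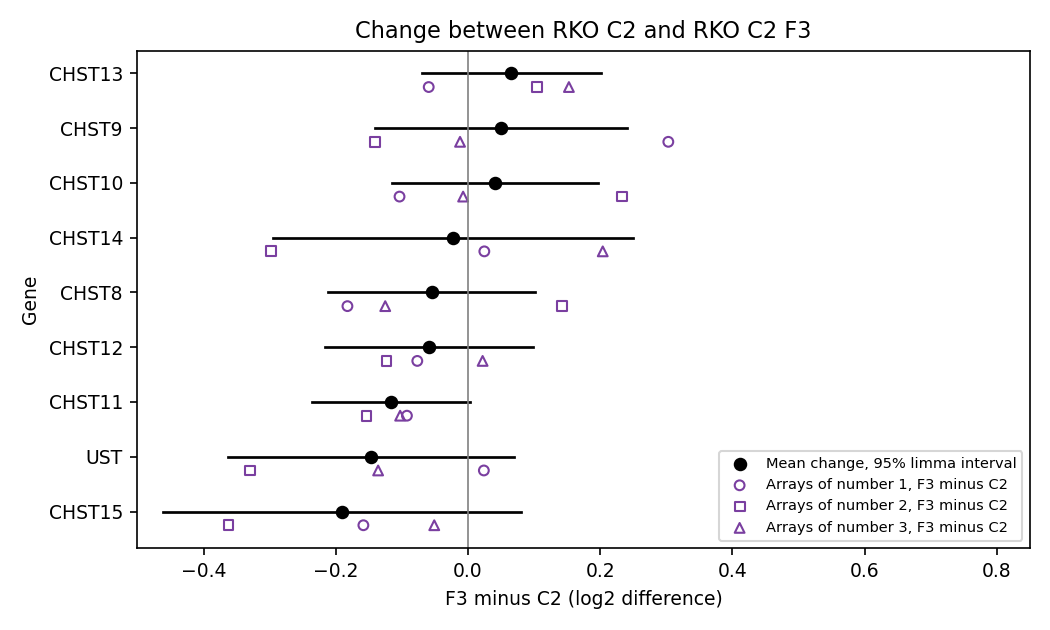
Mean log2 change, F3 minus C2, with its 95% limma interval (black) for each of the 9 genes, and below it the differences of the 3 pairs of same-numbered arrays (open symbols). All 9 intervals are from the fit without the replicate block, and in it all include 0. With the block the unadjusted limma p of CHST15 was 0.032. The 3 pair differences have the same sign for CHST11 and CHST15.

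The 3 genes with the strongest signal, CHST14, CHST15 and UST, each had their highest value on C2 replicate 2, which lay 0.28, 0.32 and 0.29 above the mean of the 6 arrays. This array was the highest of the 6 for 3 of the 9 genes and for 26.1% of all probe sets, shares too close to set the 9 genes apart, and its mean over all probe sets was 6.16, where the other arrays lay between 6.12 and 6.14. The remaining 6 genes had no common highest array, with C2 replicate 1 highest for CHST12 and CHST8. Without C2 replicate 2 the changes of CHST15 and UST shrank to -0.080 and -0.038, and that of CHST11 ran from -0.14 to -0.090 over all single arrays left out.

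**Figure D3:**
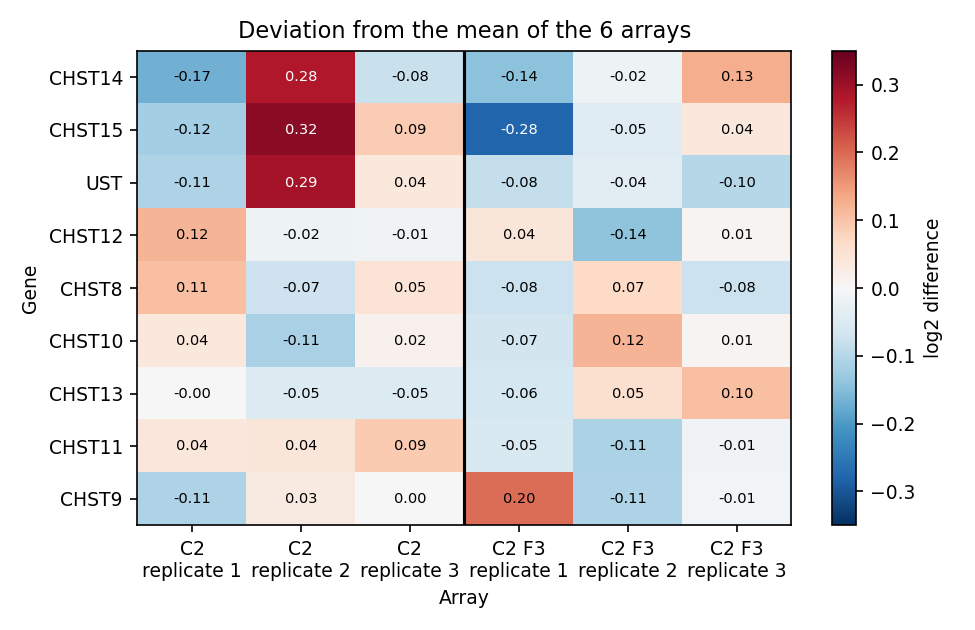
Deviation of each array from the mean of the 6 arrays on the log2 scale, for the 9 genes in the order of their signal, with RKO C2 left of the line and RKO C2 F3 right of it. C2 replicate 2 is 0.28 to 0.32 above the mean for CHST14, CHST15 and UST, and between -0.11 and 0.044 for the other genes.

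CHST15 varied most over the 6 arrays, with an SD of 0.20. The named genes with the most similar profile, out of 926 compared by Pearson's r over these 6 arrays, were PSMB2, a proteasome subunit (r = 0.990), SLC35E4, a member of the nucleotide sugar transporter family (r = 0.985), and HSP90AA1, a cytosolic chaperone (r = 0.982). Without C2 replicate 2 and F3 replicate 1, the arrays farthest from the median of CHST15, r was 0.990, 0.990 and 0.865. These are the highest of many values over few arrays and are given as a description. PSMB2 and HSP90AA1 varied less, with SDs of 0.056 and 0.054. UST and CHST14 followed at ranks 82 and 86 of the 926, with r = 0.847 and 0.845. Without the same 2 arrays r was 0.663 and 0.510, while that of CHST9 moved from -0.24 to 0.93. The arrays left are too few to say what these likenesses rest on.

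The largest difference in the 8 lists of the sulfation pathway was that of a single gene for the sulfate donor, PAPSS2, which did not pass. The lists were chosen with earlier results of these data known, and the median change of this list was -0.015. Of 8 genes for PAPS synthesis, transport and recycling, 4 were measured, of which 0 rose, 0 fell and 4 did not pass in limma. Among these 4, 1 had an unadjusted limma p under 0.05, against 5.4% of all probe sets. PAPSS2, one of the PAPS synthases, had log2 levels of 4.80, 4.88 and 4.80 in C2 and of 4.47, 4.13 and 4.42 in F3. All F3 arrays were below all C2 arrays, a pattern that 6.51% of all probe sets showed. The change was -0.49 (SE 0.089, interval -0.69 to -0.28, limma adjusted p = 0.19, or 0.23 with the replicate block). The other synthase gene, PAPSS1, had a change of 0.020 (interval -0.13 to 0.17) at a log2 level of 9.61 in C2. The Golgi PAPS transporter genes SLC35B2 and SLC35B3 were at 0.030 and -0.051.

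The related sulfotransferases CHST1 to CHST7, which act on galactose, GlcNAc or GalNAc at position 6, were all measured. In limma 0 of 7 passed and 0 had an unadjusted p under 0.05, where 5.4% of all probe sets did. The changes were 3 negative and 4 positive, with a median of 0.036, beside -0.055 for CHST8 to CHST15 with UST. CHST7, a chondroitin 6-O sulfotransferase, had the smallest p and the lowest change, at -0.12 (SE 0.082, limma adjusted p = 0.97), and CHST6, the corneal keratan sulfotransferase, the highest, at 0.062. CHST3, the other chondroitin 6-O sulfotransferase, was at 0.036.

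The genes that build the chains these enzymes sulfate did not pass either. For the linker to the core protein 5 of 6 genes were measured, with 0 called and 0 at an unadjusted limma p under 0.05. All 5 changes were negative, as were 54.6% over all probe sets, and their median was -0.054. They ran from -0.10 for the xylosyltransferase XYLT2 to -0.0080 for the galactosyltransferase B4GALT7. C2 replicate 2 was the highest array for 3 of the 5 and for 26.1% of all probe sets. For chondroitin and dermatan chains 7 of 8 were measured, with 0 called. At an unadjusted limma p under 0.05 there were 0, or 1 with the replicate block, against 5.4% and 8.02% of all probe sets. The changes were 5 negative and 2 positive, with a median of -0.014. The chondroitin synthase CHSY1 was the lowest, at -0.16 (SE 0.13, limma adjusted p = 0.97). With the block CHSY1 had the smallest limma p, 0.043 unadjusted and 0.60 adjusted. Without the block CHSY3 had the smallest p, and it had the highest change, at 0.092. The other CHSY3 probe set was at -0.12, with all F3 arrays below all C2 arrays, as for 6.51% of all probe sets. Both CHSY3 probe sets were dim, with mean log2 levels over all arrays of 2.65 for the first and 2.55 for the other. The lowest value in the data was 2.08.

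On the HNK-1 side 5 of 9 genes were measured and 0 passed in limma. Against 5.4% of all probe sets, 1 of the 5 had an unadjusted limma p under 0.05. This was B3GAT2, a glucuronyltransferase that makes the acceptor of CHST10, at -0.20 (SE 0.068, limma adjusted p = 0.84, or 0.50 with the replicate block). B3GAT2 had a log2 level of 3.41 in C2, and all its F3 arrays were below all its C2 arrays, as for 6.51% of all probe sets. B3GAT1, the other glucuronyltransferase, was at 0.0059 at a level of 8.04, and MAG, the myelin-associated glycoprotein, was highest at 0.11. The other MAG probe sets were at 0.086 and 0.16, each with a limma adjusted p of 0.97. In each, all F3 arrays were above all C2 arrays, a pattern that 3.81% of all probe sets showed. Of 9 genes on LacdiNAc, the acceptor of CHST8 and CHST9, only the 2 GalNAc-transferase genes were measured. B4GALNT3 was at 0.016 and B4GALNT4 at 0.029, and both had a limma adjusted p of 0.998.

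Among carriers of chondroitin and dermatan sulfate, 16 of 18 genes were measured, with 0 called in limma. At an unadjusted limma p under 0.05 there was 1, or 2 with the replicate block, against 5.4% and 8.02% of all probe sets. The changes were 8 negative and 8 positive, with a median of 0.00997. Arrays did not overlap for 3 genes, BCAN (lower in F3) and NCAN and BGN (higher), where 10.3% of all probe sets did not. BCAN, encoding brevican, was the lowest at -0.30 (SE 0.056, limma adjusted p = 0.19), while its other probe set was at 0.088, and the highest was CD44, the hyaluronan receptor, at 0.13 (SE 0.11). In the breakdown of the chains 11 of 12 genes were measured, with 0 called. At an unadjusted limma p under 0.05 there was 1, or 2 with the replicate block, against the same 5.4% and 8.02% of all probe sets. Without the block the lysosomal glucuronidase GUSB had the smallest p, with a change of -0.15 (limma adjusted p = 0.84). The iduronate sulfatase IDS was lowest at -0.28 (limma adjusted p = 0.97), with its other probe set at -0.021. With the block IDS had the smallest limma p, 0.0035 unadjusted and 0.47 adjusted. The hyaluronidase HYAL1 was highest at 0.11. Arrays did not overlap for 2 genes, GUSB (lower in F3) and IDUA (higher). ARSB, the sulfatase that removes the sulfate set by the 4-O sulfotransferases, was at -0.063 (SE 0.11). Its other probe sets were at -0.0023 and, with all F3 arrays below all C2 arrays, at -0.16 (SE 0.063, limma adjusted p = 0.84). The latter had an unadjusted limma p of 0.035, and 6.51% of all probe sets had such a lack of overlap in this direction.

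**Figure D4:**
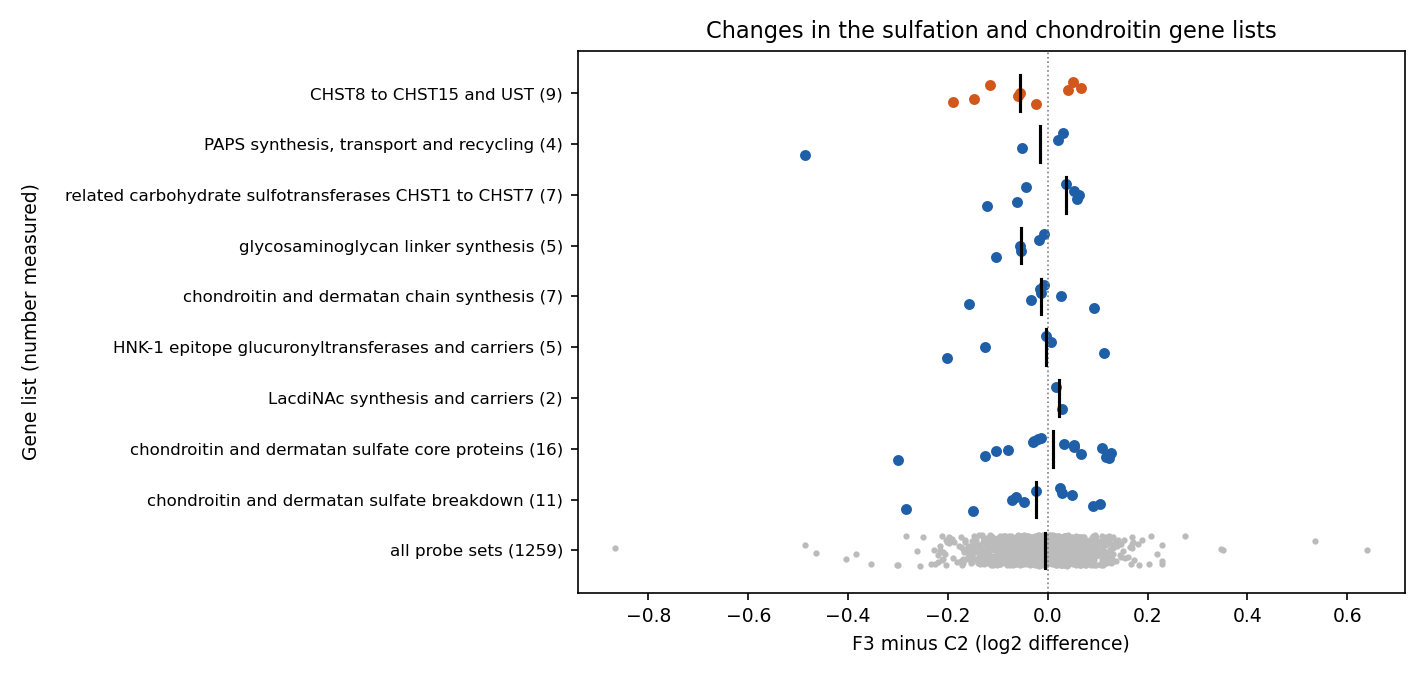
Log2 change, F3 minus C2, of each measured gene in the 8 pathway lists (blue), of the 9 sulfotransferases (orange) and of all 1259 probe sets (grey), with a black line at each median and points spread vertically for legibility. The 9 sulfotransferases lie between -0.19 and 0.066, and PAPSS2 at -0.49 stands lowest in the lists.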

How the data were processed

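Total RNA was extracted with Trizol and labelled as biotin cRNA for Affymetrix arrays, per the labels' protocols. Log2 expression values were deposited by the authors, summarised with RMA per the submitters' processing notes. The version of RMA and the probe set definitions are not stated in these sources. Because RMA equalises array distributions, it would hide a shift shared by most genes. The deposited values run from 2.08 to 14.1.

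Probe sets were named through the RefSeq gene table of GRCh38. A single symbol was found for 1043 of 1259, and 216 kept their identifiers. All 1259 were tested. In lists, the probe set with the highest mean stood for a gene. Populations were compared with limma 3.58.1 (R 4.3.3, two-sided tests from lmFit and eBayes). P-values were adjusted by Benjamini-Hochberg over the whole table, and the threshold was 0.05. The limma script was first tested on simulated data. No 2 arrays shared more than 0.477% identical values.

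Array numbers are shared between the populations. After each population's mean was removed, arrays 1, 2 and 3 of C2 and F3 correlated with r = 0.52, 0.18 and 0.26. Arrays of unlike number had r between -0.38 and 0.15, so the pair of number 2 stands out little. Same-numbered titles also end in a common tag that resembles a date. On that basis the numbers were taken as pairs. The planned fit without the block is still the main one, so every SE, interval and p-value not named as blocked leaves the pairing out.

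The members and lists were chosen with earlier results of these data known. Named were all members, the smallest p and the lowest and highest change of each list, and the 3 profiles most like the most variable member. PAPSS1, SLC35B3, CHST3, B3GAT1 and ARSB were added for their role, after their values were seen. NCAN, BGN and IDUA were added because their arrays did not overlap between the populations. The alternatives were the replicate block, median centring, quantile normalization, leaving out dim probe sets, a trend with robust eBayes, array weights, another threshold, leaving out each array and leaving out both arrays of number 2.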

Additional observations from a re-analysis of the deposited data

How the results depend on the processing

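Over 13 alternative fits, 0 of the 9 sulfotransferases passed the threshold, and their smallest limma adjusted p was 0.54, for CHST15 with the replicate block. For 6 of the 9, CHST15, UST, CHST12, CHST8, CHST13 and CHST11, the direction was kept in every fit that tested them, though single arrays left out moved CHST12 between -0.095 and -0.0032, CHST8 between -0.11 and -0.016 and CHST13 between 0.030 and 0.11. With single arrays left out CHST14 ran from -0.11 to 0.11, CHST10 from -0.0083 to 0.083 and CHST9 from -0.035 to 0.12. CHST14 was at 0.030 after quantile normalization and at 0.015 with array weights. Without both arrays of number 2, chosen after the data were seen, CHST14 was at 0.11 and CHST10 at -0.055. The cause was not tested. The number of probe sets past the threshold in the whole table was 1, but 2 with the replicate block, 2 at an adjusted p under 0.10 and 0 to 2 with single arrays left out. The block changed no call among the 9 genes. At an unadjusted limma p under 0.05, CHST11 appeared with quantile normalization, with array weights and without F3 replicate 3, CHST15 with the block, and CHST15 and UST without C2 replicate 1. CHST11 and CHST9 could not be tested without dim probe sets, since both are dim. The planned mean over a gene's probe sets was not run, as each of the 9 genes has 1 probe set. No signal over background was used, and 3 arrays per population limit the precision.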
